A study of Homo sapiens with 10 samples.

Results

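Cells detect foreign or misplaced RNA with a small set of proteins, and the messenger RNAs of 10 of them were followed here in NB4, an established line of acute promyelocytic leukemia cells. The genes were taken by their symbols among the protein-coding rows of the expression tables. All 10 were found, among 19975 protein-coding genes and 60603 genes in all. They are DDX58, IFIH1, DHX58, MAVS, EIF2AK2, ZBP1, ADAR, DDX60, DDX60L and TLR3, and DDX58 is listed as RIGI in current annotations.

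The mRNA-seq data came from 2 experiments. In the GSE1 knockdown experiment, NB4 cells received the pLKO.1 puro lentiviral vector, either empty (EV) or carrying a hairpin against GSE1, shA1 or shB2, and were collected after 48 h. In the LSD1 inhibitor experiment, NB4 cells were treated for 24 h with DMSO or with 2 µM MC2580, a compound that inhibits the histone demethylase LSD1. GSE1 encodes a protein found in complexes with LSD1. Each of the 5 conditions had 2 replicates, which gives 6 libraries in the knockdown experiment and 4 in the inhibitor experiment, and all cells of the knockdown experiment, controls included, were transduced.

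The value used for each gene is its base mean, the number of reads assigned to the gene after scaling each library by its DESeq2 size factor, averaged by the authors over all libraries of an experiment. A base mean therefore mixes control and treated cells. It carries no spread between replicates, and the depth of each library is unknown here, so no standard deviation, interval or test stands beside the values below. It was not possible to compare EV with a hairpin, or DMSO with MC2580, from base means. What could be read is how strongly each sensor gene was expressed within an experiment, and how the levels of both experiments stood to each other.

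The sensors divide the work by the kind of RNA and by where it is met. DDX58 encodes RIG-I, which recognizes short double-stranded RNA with a triphosphate end, and IFIH1 encodes MDA5, which assembles along long double-stranded RNA. DHX58 encodes LGP2, a relative that binds RNA but lacks the signaling domains of the other two. RIG-I and MDA5 pass the signal to MAVS on the mitochondrial membrane, from where kinases activate the factors that induce interferon. EIF2AK2 encodes PKR, a kinase that is switched on by double-stranded RNA and phosphorylates the translation factor eIF2alpha. ADAR encodes ADAR1, which edits adenosine to inosine in double-stranded RNA of the cell itself and so keeps it from being sensed. ZBP1 binds nucleic acids in the Z conformation and can engage RIPK3, a kinase of necroptosis. DDX60 and DDX60L are related helicases linked to antiviral defence, and TLR3 recognizes double-stranded RNA inside endosomes. Many of these genes are themselves induced by interferon, through promoter elements made of repeated GAAA units.

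The members lie on 6 chromosomes of GRCh38 in GENCODE release 44. DDX60 (chromosome 4, 168216291 to 168318883) and DDX60L (chromosome 4, 168356735 to 168537786) are neighbours on the minus strand. TLR3 (chromosome 4, 186068911 to 186088073) lies on the plus strand of the same chromosome. IFIH1 (chromosome 2, 162267074 to 162318684) and EIF2AK2 (chromosome 2, 37099210 to 37157522) share chromosome 2, and MAVS (chromosome 20, 3846799 to 3876123) and ZBP1 (chromosome 20, 57603846 to 57620576) share chromosome 20. DDX58 (chromosome 9, 32455302 to 32526208), ADAR (chromosome 1, 154581695 to 154628013) and DHX58 (chromosome 17, 42101404 to 42112714) lie apart from the rest.

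The promoters of the members were searched for the core of the interferon-stimulated response element, since many of these genes are known interferon targets. The search was for 2 copies of GAAA with any 2 bases between them, on either strand, in RefSeq windows of 300 bases that run from 250 bases before to 50 bases after a gene's start on GRCh38.p14. Windows were given for 8 members, and 5 of these held a match: DDX60, DDX60L, IFIH1, EIF2AK2 and TLR3. Of all 27305 genes with a window, 4.38% held one. The match nearest to the start of each gene is shown with its flanks in lower case, the match in capitals and the strand of the gene read 5′ to 3′.
DDX60, chr4:168318786-168318815, minus strand: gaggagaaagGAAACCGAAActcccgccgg
DDX60L, chr4:168480523-168480552, minus strand: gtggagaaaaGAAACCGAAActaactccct
IFIH1, chr2:162318686-162318715, minus strand: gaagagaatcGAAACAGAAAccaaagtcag
EIF2AK2, chr2:37156967-37156996, minus strand: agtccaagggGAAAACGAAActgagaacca
TLR3, chr4:186069142-186069171, plus strand: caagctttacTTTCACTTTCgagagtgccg
The matches of DDX60 and DDX60L have the same 10 letters and begin 53 and 50 bases before the start. In TLR3 the match is read on the opposite strand. DDX60 and DDX60L held 2 matches each, IFIH1 held 3, of which 2 overlap, and EIF2AK2 and TLR3 held 1 each. RefSeq starts need not be the outermost ones of GENCODE, and that of DDX60L lies within the gene as given above. The windows of DDX58, MAVS and ADAR, the last with 3 windows, held none, and no window was given for DHX58 and ZBP1. A match is a run of letters and not a shown binding site, and the lack of a match concerns these windows alone.

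The labelled cell type was checked against markers. Of 10 promyelocyte and myeloid markers, 9 reached a base mean of 10 in both experiments, led by MPO at 506765 and 824818, whereas ELANE, which encodes neutrophil elastase, stood at 1.10 and 3.87. Of 15 markers of T, B, erythroid, epithelial and fibroblast cells, 6 reached that level, among them CD3D, CD79A, KRT18, EPCAM and COL1A1. The highest were KRT18, at 906 and 668, and CD3D, at 866 and 869, while CD3E, MS4A1 and CDH1 stayed under 3 and HBA1 was listed at 0. GSE1 itself had a base mean of 2963 in the knockdown experiment and 4441 in the inhibitor experiment. Pooled over EV and both hairpins, that value does not check the knockdown in any library.

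ADAR was the most strongly expressed member in both experiments. Its base mean was 16142 in the knockdown experiment and 13342 in the inhibitor experiment, which is 44.9% and 48.6% of the summed base mean of the 10 members. To compare genes of unequal length, each base mean was divided by the merged exon length of the gene in kilobases. On that scale ADAR stood at 1319 in the knockdown experiment and 1090 in the inhibitor experiment, above 92.5% and 90.2% of the protein-coding genes with a base mean above 0.

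PKR and the adaptor MAVS followed at nearly the same level. EIF2AK2 had a base mean of 6029 in the knockdown experiment and 4710 in the inhibitor experiment, or 546 and 427 per kilobase. MAVS had base means of 6394 and 5715, or 543 and 486 per kilobase. The order of the pair was not the same in the 2 experiments, with MAVS at 0.994 times EIF2AK2 per kilobase in the knockdown and 1.14 times in the inhibitor experiment. ADAR, the editing enzyme, exceeded EIF2AK2 by 2.41 times and 2.55 times per kilobase.

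DDX58 and IFIH1, which encode signaling RIG-I-like receptors, came next per kilobase of merged exon, and on that scale their order changed between the experiments. DDX58 (RIG-I) had a base mean of 3302 in the knockdown experiment and 1310 in the inhibitor experiment, which is 319 and 127 per kilobase. IFIH1 (MDA5) had base means of 1329 and 879, or 254 and 168 per kilobase. DDX58 thus stood at 1.26 times IFIH1 in the knockdown experiment and at 0.752 times in the inhibitor experiment. DHX58 (LGP2) was the lowest of the 3 receptors in both, with base means of 377 and 285, or 98.5 and 74.6 per kilobase. Set against MAVS, the adaptor of RIG-I, DDX58 was 1.70 times lower in the knockdown and 3.84 times lower in the inhibitor experiment on that scale. Per kilobase of the longest single transcript, DDX58 stood above MAVS in the knockdown experiment, at 665 against 545. It stood below MAVS in the inhibitor experiment, at 264 against 487.

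DDX60L was expressed above its neighbour DDX60. DDX60L had base means of 1757 and 893, or 145 and 73.4 per kilobase, and DDX60 had base means of 569 and 299, or 32.8 and 17.3 per kilobase. The DDX60L level per kilobase of merged exon exceeded that of DDX60 by 4.40 times in the knockdown experiment and by 4.25 times in the inhibitor experiment. The pair thus kept its proportion while both were lower in the inhibitor experiment. Per kilobase of the longest single transcript the gap was smaller, with DDX60L at 259 and 132 and DDX60 at 84.8 and 44.5. In GENCODE transcripts, 0.34% of the stretches of 50 bases in DDX60L also occur in DDX60, and of stretches of 100 bases none is shared with any gene. These shares count exact matches alone, and the exchange of reads between the paralogs was not tested.

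ZBP1 and TLR3 were barely expressed. TLR3 had a base mean of 10.3 in each experiment, or 1.38 and 1.37 per kilobase, above 23.7% and 23.0% of the protein-coding genes. ZBP1 had a base mean of 9.02 in the knockdown experiment and 0.41 in the inhibitor experiment, or 1.67 and 0.075 per kilobase. Since both base means of ZBP1 fall under 10, it was left out of the ratios described below. The other 8 members lay between 32.8 and 1319 per kilobase in the knockdown experiment, where the median protein-coding gene stood at 75.2, and 7 of the 10 were above that median. The count above the median was also 7 in the inhibitor experiment, where the median gene stood at 71.9, but it was 3 when only genes with base means of 10 or more were ranked. DHX58 and DDX60L lay just above the median there, at 74.6 and 73.4 per kilobase.

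**Figure D1:**
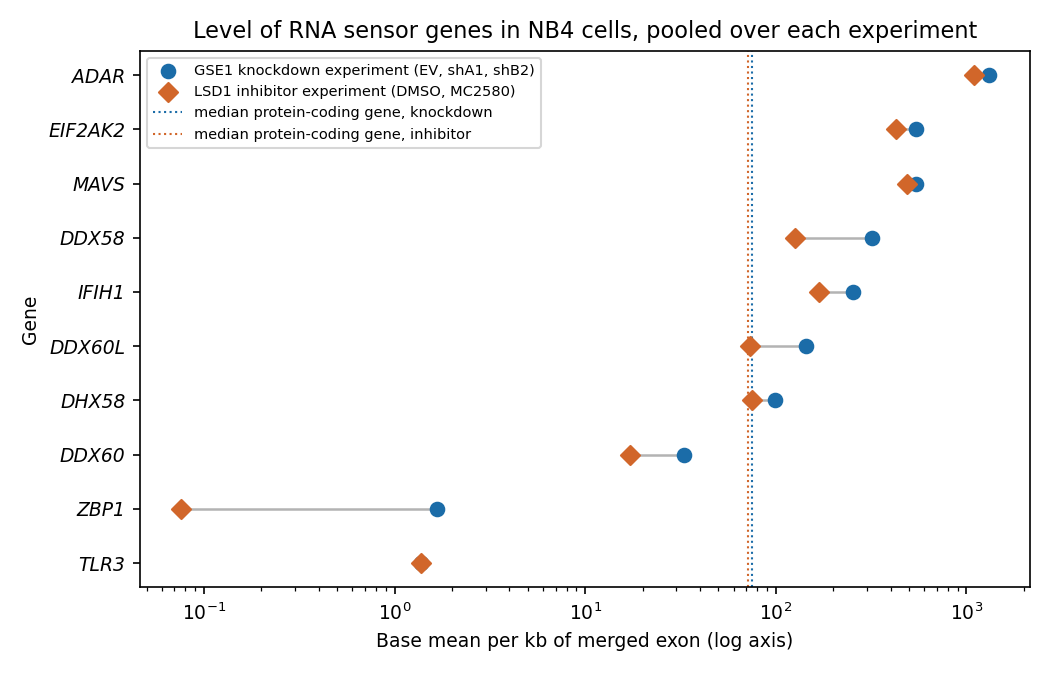
Level of each gene as base mean per kilobase of merged exon (log axis) in the GSE1 knockdown experiment (circles, 6 libraries pooled) and the LSD1 inhibitor experiment (diamonds, 4 libraries pooled), with dotted lines at the median protein-coding gene of each. ADAR, EIF2AK2 and MAVS stand highest, and TLR3 and ZBP1 stand below 2 in both; no error bars are drawn because a base mean has no spread.

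The length used matters for the order. With the longest single transcript in place of the merged exons, DDX58 moved to the second place in the knockdown experiment, at 665 per kilobase, above EIF2AK2 at 597 and MAVS at 545. In the inhibitor experiment it then stood at 264 per kilobase, above IFIH1 at 237, so that the crossing of both receptors is not seen on that scale. ADAR stayed in the first place in both experiments, and DHX58, DDX60, ZBP1 and TLR3 took the places from 7 to 10 in both. Exons of DDX58 overlap those of another annotated gene on the same strand, ENSG00000288684, over 4471 bases, and 40.8% of the stretches of 100 bases in DDX58 transcripts also occur there. EIF2AK2 shares 2.56% of such stretches with the pseudogene ARL14EPP1, whose 401 overlapping bases lie on the opposite strand. Whether the annotation used by the authors holds these genes was not checked. The effect of this sharing on the assigned reads was not tested.

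Setting the experiments side by side, the sensor genes as a group had lower base means in the LSD1 inhibitor experiment than in the knockdown experiment. The tables were normalized separately and share no library, so the ratio is a description. It was taken as the log2 of the base mean in the inhibitor experiment over that in the knockdown experiment, with the median set to 0 over the 12354 protein-coding genes whose base means were 10 or more in both experiments. Before that step the median was -0.07. The middle 50% of these genes lay between -0.31 and 0.30, and 90% lay between -0.90 and 0.75. Of the 9 members past the minimum, 8 were below 0, 5 were in the lowest 25% of genes and 3 in the lowest 10%, with a median of -0.33.

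DDX58 had the lowest ratio of the members, -1.27, with 2.02% of the protein-coding genes below it. Its base mean in the knockdown experiment was 2.41 times that in the inhibitor experiment on the centred scale. The neighbours DDX60L and DDX60 followed at -0.91 and -0.86, or 1.88 and 1.82 times higher in the knockdown experiment. IFIH1 was at -0.53, with 13.9% of genes below it. DHX58 at -0.33 was the last member in the lowest 25%. The 3 RIG-I-like receptors and both DDX60 helicases thus occupied the 5 lowest places among the members.

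The kinase, the editing enzyme and the adaptor lay closer to the median gene. EIF2AK2 had a ratio of -0.29, ADAR of -0.21 and MAVS of -0.10, all inside the middle 50% of genes. TLR3 was at 0.06 and is the member whose sign depends on the scaling. Within the RIG-I-like receptors the ratios ranged from -1.27 for DDX58 to -0.33 for DHX58, a wider range than that among EIF2AK2, ADAR and MAVS.

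**Figure D2:**
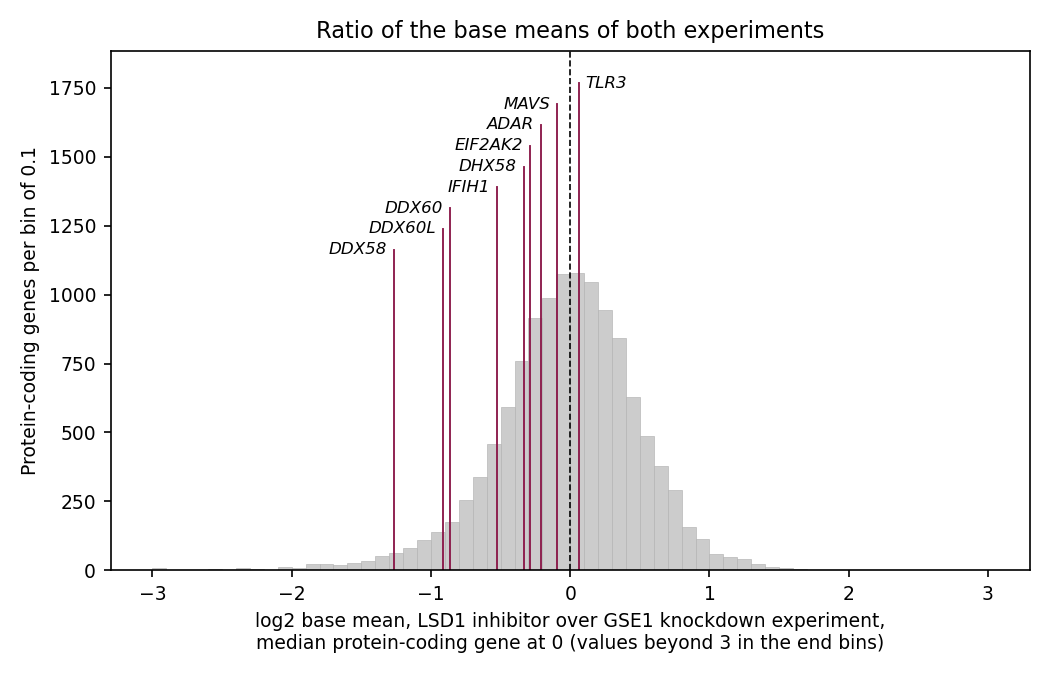
Histogram of the log2 ratio of base means, LSD1 inhibitor over GSE1 knockdown experiment, for 12354 protein-coding genes (vertical axis, genes per bin of 0.1), with a vertical line, of no set height, at each of the 9 members past the minimum and the median gene at 0. DDX58, DDX60L and DDX60 stand in the left tail between -1.27 and -0.86, and TLR3 alone stands to the right of 0, at 0.06.

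The experiments differ in transduction, hairpins, compound and time, and other differences between them are not known here. None of these can be told apart in the ratio. Most of the listed promyelocyte and myeloid markers had ratios on the other side of 0. Of the 9 promyelocyte and myeloid markers past the minimum, 8 had a ratio above 0, with a median of 0.75 and a highest value of 1.39 for AZU1, an azurophil granule protein. CEBPA and CSF3R stood at 0.02 each and CD33 at -0.00, near the median gene. CD14, a myeloid marker listed here with the endosomal genes, was at -0.79. Whether the difference in these markers bears on the sensor genes was not tested. GSE1 had a ratio of 0.65.

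The other genes of RNA sensing and of the pathways around it were read from 10 lists. Of their symbols, 72 were found among protein-coding genes and 63 reached the minimum in both experiments. Among these 63, 45 had a ratio below 0 and 18 above, with a median of -0.23, and 28.6% lay in the lowest 10% of protein-coding genes.

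Of the 12 listed adaptors and kinases of RNA sensing, 11 exceeded the median of 75.2 per kilobase in the knockdown experiment. That median covers all protein-coding genes with a base mean above 0. Among genes with base means of 10 or more, DDX60L, at 145 per kilobase, stood above only 43.3%. TBK1, IKBKG and TICAM1 were lower than DDX60L and so below the median of those genes. IKBKE, FADD and IKBKB were highest, at 1002, 954 and 377 per kilobase, and TBK1, IKBKG and TICAM1 lowest, at 144, 95.4 and 40.8. TICAM1 encodes TRIF, the adaptor of TLR3. Their ratios had a median of -0.15, with 8 below 0, and TBK1, the kinase that phosphorylates IRF3, was lowest at -0.68.

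Among the ligases and cofactors, PCBP2, DHX9 and DHX15 were highest, at 3671, 2484 and 1841 per kilobase, and DICER1, RNF125 and PRKRA, which encodes the PKR activator PACT, were lowest, at 156, 131 and 77.3. All 15 exceeded the same median of 75.2 per kilobase, PRKRA only narrowly. RNF125 and PRKRA were below the median of genes with base means of 10 or more. Of their ratios, 10 were below 0, with a median of -0.30. The lowest belonged to ZC3HAV1, the zinc finger antiviral protein, at -0.86. TRIM25, a ubiquitin ligase of the RIG-I pathway, was at -0.30.

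The transcription factors downstream of the sensors were all above the same median of 75.2 per kilobase in the knockdown experiment, IRF9 only narrowly. IRF9 was below the median of genes with base means of 10 or more. IRF3 and RELA were among the highest, at 1181 and 762, and NFKB1, IRF1 and IRF9 were lowest, at 201, 187 and 77.8. STAT2, which carries the interferon signal to the nucleus, had a ratio of -0.58, whereas IRF3, the factor activated through MAVS, was at 0.28 and IRF9 at 0.21. In all, 5 of the 8 were below 0, with a median of -0.15.

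Of the 12 genes around PKR, 7 had a ratio below 0 and 5 above, with a median of -0.06. EIF2AK1, EIF2B1 and PPP1R15A were highest, at 2628, 1484 and 996 per kilobase, and EIF2AK4, EIF2B2 and EIF2AK3 lowest, at 321, 291 and 45.6. The 5 subunits of eIF2B, the exchange factor that phosphorylated eIF2alpha blocks, had ratios from -0.06 for EIF2B2 to 0.29 for EIF2B1. PPP1R15A and PPP1R15B, which direct the phosphatase to eIF2alpha, were at -0.87 and -0.72. The sister kinases EIF2AK4 (GCN2) and EIF2AK3 (PERK) were at -0.70 and -0.69, below EIF2AK2 itself at -0.29, and EIF2AK1 (HRI) was at 0.10.

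The oligoadenylate synthetase family, another arm of double-stranded RNA sensing, also had low ratios. OAS2, OAS3 and OASL were at -0.93, -1.21 and -1.67, and ABCE1, a ribosome recycling factor of the same list, was at -0.09. OAS2 stood at 675 per kilobase in the knockdown experiment and 339 in the inhibitor experiment. OAS3 stood at 518 and 214, and OASL at 276 and 82.9.

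ZBP1 had little of its partner beside it. RIPK3 had a base mean of 17.5 in the knockdown experiment and 11.2 in the inhibitor experiment, whereas MLKL, the executor of necroptosis, and CASP8 stood at 1867 and 3567 in the knockdown experiment. Their ratios were -0.57 for RIPK3, -0.31 for MLKL and -0.97 for CASP8. Of the other editing enzymes, ADARB1 stood at 146 per kilobase against 1319 for ADAR, with a ratio of -0.14, ADAD2 and ADARB2 had base means of 2.55 and 0.16 in the knockdown experiment, and ADAD1 was listed at 0.

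The endosomal receptors beside TLR3 were also scarce. TLR9 had a base mean of 96.3 in the knockdown experiment and 26.7 in the inhibitor experiment, a ratio of -1.78, the lowest among the 63 genes, and TLR7 and TLR8 were under 1 in the former and listed at 0 in the latter. UNC93B1, which carries these receptors to endosomes, stood at 722 per kilobase, and CD14 at 19.2, and their ratios were -0.14 and -0.79. Among the DNA sensors, TMEM173, which encodes STING, stood at 1044 per kilobase, IFI16 at 698, CGAS at 374 and AIM2 at 7.72. The ratios of IFI16 and AIM2 were -0.93 and -1.24, and those of TMEM173 and CGAS 0.11 and -0.08. Transcripts of the interferons themselves were near the lower end. IFNB1 had base means of 3.68 and 2.59, while IFNA1 had one of 3.75 in the inhibitor experiment and IFNA2 of 0.72 in the knockdown experiment, and IFNA2 in the inhibitor experiment and IFNL1 in both were listed at 0.

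**Figure D3:**
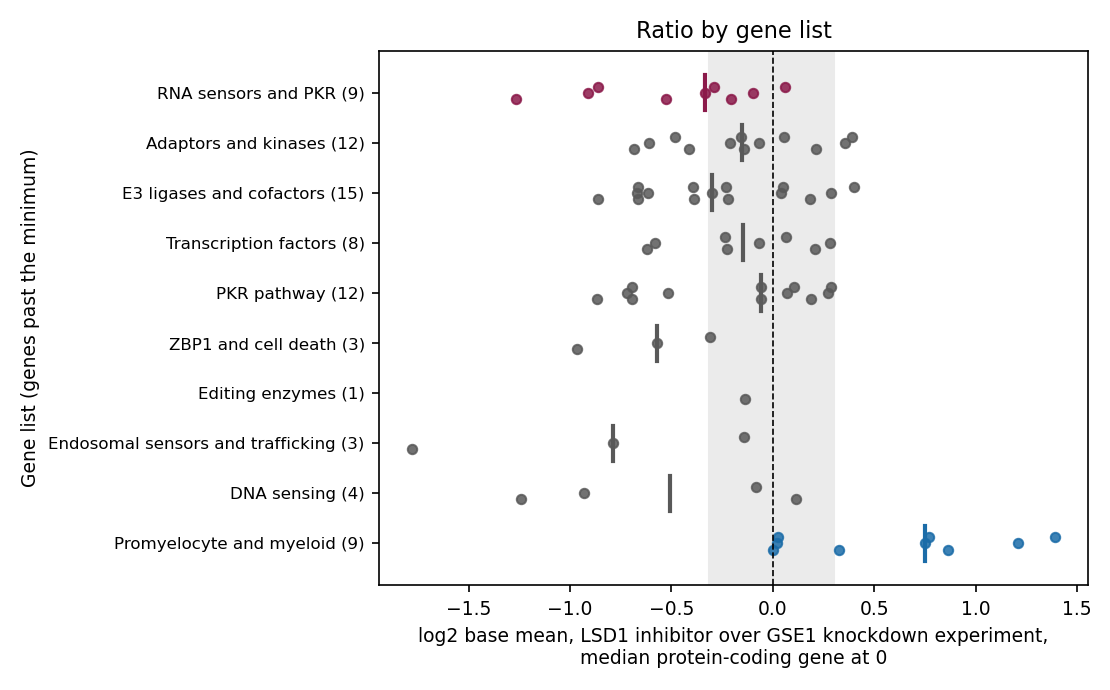
Log2 ratio of base means, LSD1 inhibitor over GSE1 knockdown experiment, with a point for each gene past the minimum, a bar at the median of lists of at least 3 genes, the number of genes in brackets and the middle 50% of protein-coding genes shaded. The list with the oligoadenylate synthetases is not drawn. The median is -0.33 for the sensor genes and 0.75 for the promyelocyte and myeloid markers. For the endosomal list, with 3 genes past the minimum, it is -0.79, the value of CD14.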

How the data were processed

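Libraries were made by the authors from NB4 total RNA with TruSeq, mapped to hg38 with STAR 2.7 and quantified with RSEM, as the methods and the submitters' processing notes give it. The deposited signal values are base means, the counts divided by DESeq2 size factors and averaged by the authors over all libraries of an experiment. Both base mean columns of the knockdown table are equal in every row, so 1 was used. The tables also hold the authors' own comparisons (log2 fold changes, standard errors, Wald statistics, p-values and adjusted p-values), which were not used. No count per library was analysed, so the planned count-based test, its alternatives and leaving out replicates were not run.

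Tables were joined on gene identifiers. Lengths and positions came from GENCODE release 44, which matched 60261 of 60603 identifiers. Ratios were limited to protein-coding rows whose base means were 10 or more in both tables, without a pseudocount. The ratio step was run on simulated base means, drawn for both experiments from the knockdown values with known changes added. That run checks the calculation only and does not bear on how the real experiments differ. Named genes were all 10 members and, per pathway list, the 3 highest and 3 lowest per kilobase, of which a few, though counted in their lists, are not reported here. Other listed genes are named for their ratio after their values were seen. The members and lists were chosen with earlier results of these data known. Python 3.11.15, pandas 2.3.3 and matplotlib 3.10.9 were used.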

Additional observations from a re-analysis of the deposited data

How the results depend on the processing

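The sign of the ratio held for DDX58, IFIH1, DHX58, MAVS, EIF2AK2, ADAR, DDX60 and DDX60L under equal sums of base means, no centring, a minimum base mean of 50, a minimum above 0 and a pseudocount of 1. TLR3 turned to -0.029 with equal sums and to -0.0054 with no centring, against 0.06, and has no value at the minimum of 50. With only a base mean above 0 required, ZBP1 gave -4.42, a value that rests on a base mean of 0.41. In the inhibitor experiment, 7 members exceeded the median protein-coding gene per kilobase, but 3 did when genes under a base mean of 10 were left out of the ranking, since leaving out low genes raises the median. In the knockdown experiment that count ranged from 5 to 8. The planned count-based test, its alternatives and leaving out replicates were not run. No paired analysis was possible because the base means are pooled over replicates. For the same reason no spread, depth or interval per library could be given, and a difference between neighbouring levels, such as MAVS and EIF2AK2, could not be tested.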
